A study of Mus musculus with 12 samples.

Results

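The 10 genes described here encode the cell-surface receptors of the TGF-beta superfamily: Tgfbr1, Tgfbr2, Tgfbr3, Acvr1, Acvr1b, Acvr2a, Acvr2b, Bmpr1a, Bmpr1b and Bmpr2. They were taken by name from a list of receptor genes, with no cut on a measured value. That list was chosen with earlier results of these data known. The receptors are 10 of the 53379 genes in the count tables. All 10 passed the filter on low counts and are among the 13442 genes tested.

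Superfamily ligands (TGF-betas, activins, bone morphogenetic proteins or BMPs, and growth differentiation factors) bind a complex of type II and type I receptors, both of them serine/threonine kinases. The type II receptor phosphorylates the type I receptor, which then phosphorylates SMAD proteins: SMAD2 and SMAD3 in the TGF-beta and activin branch, SMAD1, SMAD5 and SMAD9 in the BMP branch. SnoN, the product of Skil, binds SMADs and represses their targets. In the cerebellum BMP signals are known to oppose the Sonic hedgehog-driven division of granule neuron precursors.

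RNA came from the external granule layer, where those precursors divide, cut out by laser from the central lobules of the cerebellum in C57BL/6 mice aged 6 days (P6). One group carried a conditional knockout of SnoN and the other was wild-type littermates; the labels name neither the Cre driver nor the deleted exons. There were 6 libraries in each group, written here as WT1 or KO2 after the numbers in their titles. Their depth was 7520076 to 15083086 counts in genes. WT2 and KO4, which the submitters marked as outliers by robust principal component analysis, were left out of the comparison (5 against 5) and are given beside it. KO2 is knockout by its title and wild type by its genotype tag, and is kept here as knockout. The labels do not say that libraries came from separate mice, so a p-value measures the spread between libraries, part of which may be technical.

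Skil stood at 49.9 ± 7.98 CPM in wild type against 30.7 ± 6.38 in knockout (SD, n = 5 each; CPM are counts per 1e+06 after TMM scaling), and the groups did not overlap. Its fitted log2 fold change was -0.70 (edgeR, adjusted p = 0.124), and -0.94 with the GC trend described later removed (adjusted p = 7.51e-04). WT2 had 76.5 CPM of Skil and KO4 14.0, the extremes of all 12. All 11 markers of granule precursors were detected in all 12 libraries, the precursor factor Atoh1 at 92.2 ± 16.7 CPM in wild type. RNA of other cells was present too. In wild type the summed level was 242 to 304 CPM over 9 endothelial markers, 106 to 176 CPM over 8 markers of pericytes and smooth muscle, 250.2 to 359 CPM over 9 Purkinje cell markers and 844 to 1271 CPM over 10 markers of Bergmann glia and astrocytes; no gene of these lists was at 0 in all libraries. Such bulk RNA cannot tell fewer cells of a type from less RNA per cell.

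Promoter sequences are shown for 4 receptors whose window overlaps no annotated exon. They show how the base composition of these 4 starts differs, since the GC content of transcripts moves with the differences in the knockout. Windows were found in RefSeq (GRCm38.p6) for 9 of the 10 genes, and each covers the 250 bases before the RefSeq start. Capitals mark GGGCGG (or CCGCCC on the other strand), the core of GC boxes, and CAGAC (or GTCTG), a core of SMAD-binding elements; no 2 marked motifs overlap in these windows. Each sequence reads 5′ to 3′ on the strand of its gene.
Tgfbr1, chr4:47352972-47353221, plus strand, the first of 2 RefSeq starts: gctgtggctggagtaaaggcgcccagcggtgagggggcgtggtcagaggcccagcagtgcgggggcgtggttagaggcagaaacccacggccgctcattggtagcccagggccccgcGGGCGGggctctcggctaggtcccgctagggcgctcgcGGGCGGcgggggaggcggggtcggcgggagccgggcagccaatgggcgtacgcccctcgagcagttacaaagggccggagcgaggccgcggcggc
Acvr2a, chr2:48813859-48814108, plus strand: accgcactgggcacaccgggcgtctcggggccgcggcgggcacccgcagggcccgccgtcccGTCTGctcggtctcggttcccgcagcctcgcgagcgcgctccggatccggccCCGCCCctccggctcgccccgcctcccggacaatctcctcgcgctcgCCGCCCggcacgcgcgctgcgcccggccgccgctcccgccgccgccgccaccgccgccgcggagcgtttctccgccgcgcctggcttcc
Tgfbr2, chr9:116175364-116175613, minus strand: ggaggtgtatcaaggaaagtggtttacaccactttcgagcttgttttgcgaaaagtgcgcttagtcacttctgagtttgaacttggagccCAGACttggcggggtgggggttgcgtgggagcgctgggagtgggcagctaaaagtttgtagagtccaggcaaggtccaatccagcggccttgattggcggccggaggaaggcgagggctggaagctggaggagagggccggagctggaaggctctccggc
Bmpr1b, chr3:141982265-141982514, minus strand, the first of 3 RefSeq starts: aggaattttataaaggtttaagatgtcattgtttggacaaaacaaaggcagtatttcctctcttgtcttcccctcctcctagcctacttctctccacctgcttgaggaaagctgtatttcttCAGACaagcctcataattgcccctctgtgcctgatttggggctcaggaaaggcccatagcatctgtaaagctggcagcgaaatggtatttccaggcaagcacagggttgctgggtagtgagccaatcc

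The first Tgfbr1 window was 74.8% G and C with 29 CpG dinucleotides, and the Acvr2a window 82.0% with 49. The second Tgfbr1 window, not printed, was 52.8% with 3 CpG. The Tgfbr2 window was 58.4% with 12 CpG, and the first Bmpr1b window 46.8% with 1. That Bmpr1b window lies inside the annotated gene, which on its minus strand begins at 142169425. The second Tgfbr1 window also lies inside its gene. Of the 4 printed windows, those of Tgfbr1 and Acvr2a held GGGCGG 2 times each and those of Tgfbr2 and Bmpr1b did not; it was in 32.7% of all 32841 promoter windows of that length. CAGAC occurred once each in the printed windows of Acvr2a, Tgfbr2 and Bmpr1b, and 42.2% of all windows held it. For Tgfbr1 it was not in the first window and occurred once in the second, which held no GGGCGG. The longer SMAD element GTCTAGAC, in 0.167% of all windows, was in none of the receptor windows. The 5 remaining receptors with a window had 64.0% to 85.6% G and C there. The longest Tgfbr1 and Acvr2a transcripts had a GC content of 41.0% and 39.9%, those of Bmpr2, Bmpr1a and Bmpr1b 41.0%, 41.3% and 42.2%, and those of Tgfbr3, Acvr1, Tgfbr2, Acvr1b and Acvr2b 48.6%, 48.7%, 49.6%, 53.5% and 54.4%, around a median of 49.3% over tested genes. By transcript the receptors fall into 5 of low GC content and 5 near or above the median.

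In the 5 compared wild-type libraries Bmpr1a and Tgfbr1 were the receptors with the most transcripts per length, and Tgfbr3 had the fewest. Levels between genes are compared as CPM per kb of exon. In WT2, which is not in these means, Bmpr2 was above both at 44.8 CPM per kb, beside 39.1 for Tgfbr1 and 38.7 for Bmpr1a. Bmpr1a, the main BMP type I receptor (ALK3), stood at 22.6 ± 1.69 CPM per kb (SD, n = 5, as for the levels below) and Tgfbr1, the TGF-beta type I receptor (ALK5), at 19.1 ± 1.89. Both were in the upper part of tested genes, at percentiles 82.1 and 79.6. The type II receptors Bmpr2, which serves BMPs, and Acvr2a, which serves activins and BMPs, followed at 8.69 ± 2.52 and 6.69 ± 0.788 CPM per kb. Next came the activin type I receptor Acvr1b (ALK4) at 4.21 ± 0.896, the BMP type I receptor Acvr1 (ALK2) at 3.04 ± 0.514 and the activin type II receptor Acvr2b at 2.60 ± 0.569 CPM per kb. Bmpr1b (ALK6), the close relative of Bmpr1a, stood at 1.68 ± 0.222, and Tgfbr2, the type II receptor that TGF-betas require, at 1.47 ± 0.199. The co-receptor betaglycan, Tgfbr3, was lowest at 0.327 ± 0.0463 CPM per kb, from only 13 to 40 counts per library over all 12.

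The ranges of the 5 wild-type libraries overlapped between each receptor and the next in this order except at 2 places: all Tgfbr1 values lay above all Bmpr2 values, and all Tgfbr2 values above all Tgfbr3 values. Taking the longest transcript as the length in place of all exons exchanged Acvr1 and Acvr1b and left the other ranks as they were.

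**Figure D1:**
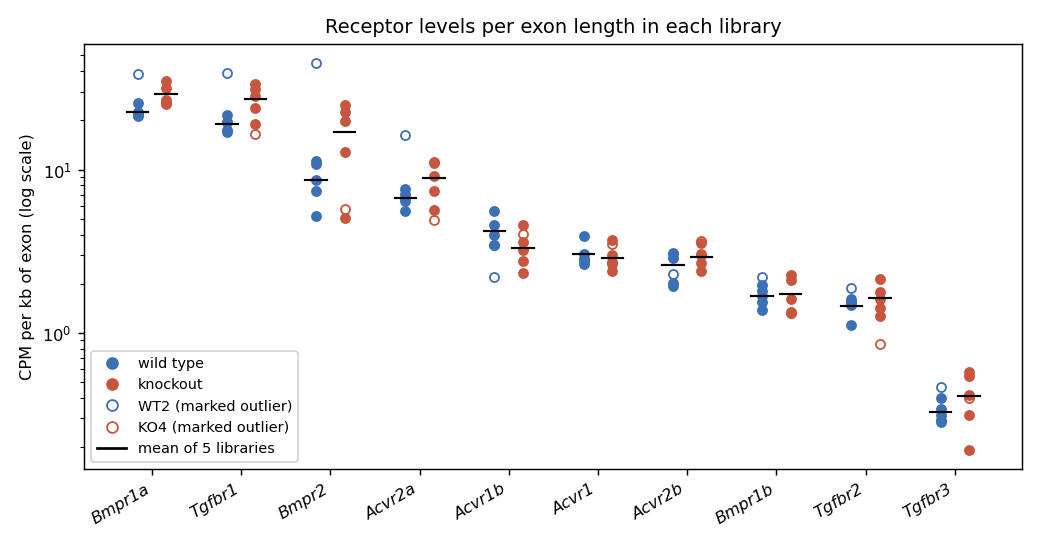
Level of each receptor in CPM per kb of exon (log axis) in every library, wild type in blue and knockout in red, open circles for WT2 and KO4, bars for the mean of the other 5 libraries. The means of Bmpr1a and Tgfbr1 lie highest and that of Tgfbr3 lowest in both groups, and the Bmpr2 points spread most.

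A pair of genes held most of the type I transcripts among the 10 receptors. Type I and type II sums here and in the next paragraph cover those 10 alone, so further receptors such as Acvrl1 are left out. Bmpr1a and Tgfbr1 together made up 82.3 ± 2.39% of type I receptor transcripts per length in wild type (SD, n = 5) and 87.3 ± 2.81% in knockout. BMP type I receptors (Bmpr1a, Bmpr1b and Acvr1) made up 53.9 ± 1.23% of the type I sum in wild type and 52.6 ± 3.24% in knockout, the rest being Tgfbr1 and Acvr1b. Bmpr1a exceeded Bmpr1b by 13.6 ± 1.98 times in wild type. Tgfbr1 exceeded its type II partner Tgfbr2 by 13.2 times on average in wild type (10.5 to 15.6) and by 16.7 times in knockout (11.7 to 22.2), with overlapping ranges.

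Type I transcripts per length outnumbered those of type II in each of the 12 libraries. The type I to type II ratio was 2.64 ± 0.328 in wild type, from 2.25 to 3.14, and 2.27 ± 0.640 in knockout, from 1.70 to 3.30. It was 1.30 in WT2 and 3.33 in KO4. Bmpr2 supplied 34.2% to 50.8% of type II transcripts per length in the 5 wild-type libraries and 31.8% to 60.8% in the 5 knockout libraries.

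In the knockout, 8 of the 10 receptors had a higher mean CPM than in wild type: Bmpr2 by 1.96 times, Tgfbr1 by 1.42, Acvr2a by 1.33, Bmpr1a by 1.28, Tgfbr3 by 1.25, Acvr2b and Tgfbr2 by 1.13 and Bmpr1b by 1.03. Acvr1 and Acvr1b had lower means, at 0.952 and 0.787 times wild type. By edgeR's quasi-likelihood test 0 of the 10 receptors were called at 0.05 after adjustment over all genes, beside 3 of 13442 genes (0.0223%). At an unadjusted p under 0.05, Bmpr2, Tgfbr1, Acvr2a and Bmpr1a were higher and 0 receptors were lower, where 11.8% of all genes were higher and 9.97% lower. The median log2 fold change was 0.04 over the 5 type I receptors and 0.29 over the 4 type II receptors, beside 0.0013 over all genes tested. In 0 of 10 receptors were the 2 groups free of overlap, against 1.04% of genes free of overlap as higher and 1.31% as lower.

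Tgfbr1, the receptor through which TGF-beta reaches SMAD2 and SMAD3, is on chromosome 4 (47353222 to 47414931 in GRCm38, plus strand). From low to high, WT6 had 111 CPM, WT1 115, WT7 128, WT5 129 and WT3 142. Of the knockout libraries, KO5 had 124 CPM, KO6 155, KO8 184, KO2 205 and KO3 219. KO2, KO3, KO6 and KO8 lay above each wild-type library, and KO5 lay among them. The marked libraries had the opposite order, WT2 with 255 CPM and KO4 with 107, each the extreme of all 12. Tgfbr1 averaged 125 ± 12.3 CPM in wild type against 177 ± 38.3 (SD, n = 5 each), and its log2 fold change was 0.51 (SE 0.13; edgeR p = 0.00136, adjusted p = 0.129; two-sided exact permutation p = 0.0317 for this gene alone).

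Bmpr1a, on chromosome 14 (34410734 to 34503341, minus strand), carries BMP signals to SMAD1, SMAD5 and SMAD9. WT1 had 135 CPM, WT5 138, WT6 139, WT7 144 and WT3 162. KO5 had 162 CPM, KO6 165, KO2 169, KO8 201 and KO3 222. The groups touched only at 1 point, where KO5 was below WT3 by less than the last digit given. WT2 was again the highest of all libraries at 246 CPM, and KO4 had 161. The log2 fold change was 0.36 (SE 0.11; edgeR p = 0.00349, adjusted p = 0.131; two-sided exact permutation p = 0.0159). It averaged 143 ± 10.7 CPM in wild type against 184 ± 26.4 (SD, n = 5 each). Of the 4, Bmpr1a had the smallest spread, with an SD of 7.50% of the mean in wild type and 14.4% in knockout. Its gene overlaps the antisense RNA Gm17110, and the library kit does not mark strand; Gm17110 had 182 counts in all 12 libraries together.

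Bmpr2, on chromosome 1 (59763400 to 59879014, plus strand), had the widest spread between libraries. WT6 had 94.2 CPM, WT1 133, WT5 155, WT3 195 and WT7 204. KO5 had 90.7 CPM, KO6 231, KO8 357, KO2 405 and KO3 446. KO5 lay below every wild-type library and the other 4 knockout libraries above every one. WT2 reached 805 CPM while KO4 stood at 104, so that the highest of 12 libraries was 8.88 times the lowest. Bmpr2 averaged 156 ± 45.3 CPM in wild type against 306 ± 145 (SD, n = 5 each), with a fitted log2 fold change of 0.97 (SE 0.39; edgeR p = 0.0310, adjusted p = 0.192; two-sided exact permutation p = 0.103).

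Acvr2a, on chromosome 2 (48814109 to 48903269, plus strand), was also highest in WT2, KO2, KO3 and KO8. WT6 had 31.6 CPM, WT5 36.4, WT1 38.1, WT3 40.5 and WT7 43.5. KO5 had 32.2 CPM, KO6 41.8, KO8 52.0, KO3 62.6 and KO2 63.4. KO2, KO3 and KO8 lay above wild type, while KO5 and KO6 lay within it. WT2 stood at 93.0 CPM and KO4 at 28.0, again the extremes of all 12. The log2 fold change was 0.40 (SE 0.16; edgeR p = 0.0219, adjusted p = 0.171; two-sided exact permutation p = 0.111). It averaged 38.0 ± 4.48 CPM in wild type against 50.4 ± 13.4 (SD, n = 5 each). Its gene overlaps Orc4 on the opposite strand, which had 16966 counts in all libraries together.

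**Figure D2:**
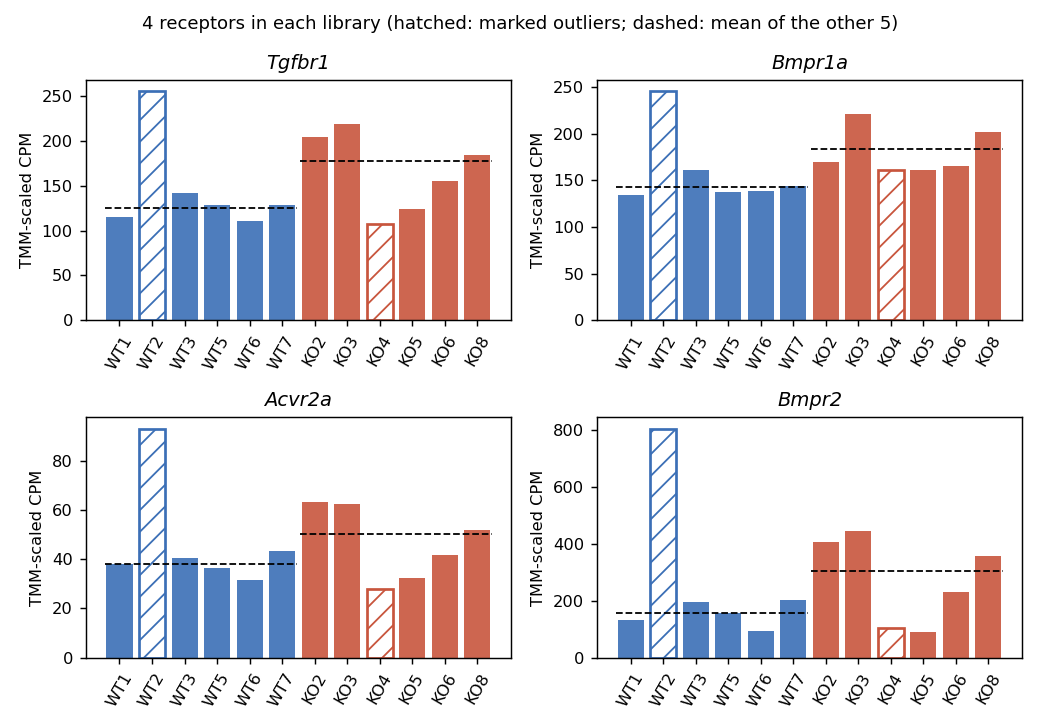
TMM-scaled CPM of Tgfbr1, Bmpr1a, Acvr2a and Bmpr2 in the 12 libraries, wild type in blue, knockout in red, hatched bars for the marked WT2 and KO4, dashed lines for the mean of the other 5 libraries. KO5 is the lowest of the 5 compared knockout libraries in each panel, and WT2 is the tallest bar in all 4.

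None of the other 6 receptors had an unadjusted p under 0.05. Acvr1b (chromosome 15, 101174067 to 101213684) had the largest difference in the lower direction. WT5 had 15.2 CPM, WT3 15.3, WT7 17.5, WT6 20.3 and WT1 24.6. KO3 had 10.4 CPM, KO2 12.3, KO8 14.2, KO5 16.05 and KO6 20.4. KO2, KO3 and KO8, the libraries highest for Bmpr2, lay below all wild-type values, and WT2 was lowest of all 12 at 9.69 CPM. The log2 fold change was -0.35 (SE 0.19; edgeR adjusted p = 0.278; two-sided exact permutation p = 0.135).

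For Tgfbr2 (chromosome 9, 116084293 to 116175360) wild-type values ran from 9.18 CPM in WT1 to 13.2 in WT6 and knockout values from 10.4 CPM in KO8 to 17.6 in KO3, a log2 fold change of 0.17 (SE 0.17, edgeR adjusted p = 0.563). Acvr2b (chromosome 9, 119402118 to 119434995) ran from 7.62 to 12.1 CPM and from 9.35 to 13.9 CPM, with 0.17 (SE 0.18, adjusted p = 0.588). Acvr1 (chromosome 2, 58388644 to 58567157) ran from 12.7 to 18.9 CPM and from 11.5 to 17.9 CPM, with -0.06 (SE 0.16, adjusted p = 0.840). All 3 had ranges in which each group reached into the other. Bmpr1b (chromosome 3, 141837136 to 142169425) ran from 8.28 to 11.7 CPM and from 7.93 to 13.6 CPM, with 0.04 (SE 0.19, adjusted p = 0.923). Tgfbr3 (chromosome 5, 107106570 to 107289629) ran from 1.86 to 2.62 CPM and from 1.27 to 3.80 CPM, with 0.31 (SE 0.32, adjusted p = 0.586), a difference no larger than its SE. Tgfbr2 and Tgfbr3 are also receptors of vessel walls; the summed endothelial markers averaged 285 CPM in wild type against 273 in knockout (two-sided exact permutation p = 0.635), and their part in these 2 genes was not tested.

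The number of receptors called depended on which libraries entered and on the test. Without KO5 the adjusted p was 9.12e-04 for Tgfbr1, 0.00545 for Acvr2a, 0.00682 for Bmpr1a and 0.0103 for Bmpr2, so that 4 of 10 passed as higher in a fit that called 22.9% of all genes, 12.3% as higher. DESeq2 called Tgfbr1 (adjusted p = 0.0319) and Bmpr1a (0.0445), where it called 3.34% of genes, 1.75% as higher; it gave no adjusted p for Tgfbr3. Without a filter on low counts edgeR called Tgfbr1 alone of the receptors (adjusted p = 0.00242), with 3.49% of genes called, 2.29% as higher. With all 12 libraries edgeR called 0 receptors and 0.00751% of genes, and the log2 fold change was 0.18 for Tgfbr1 (SE 0.21), 0.17 for Bmpr1a (SE 0.15), 0.04 for Bmpr2 (SE 0.51) and -0.01 for Acvr2a (SE 0.26). On the same 12 libraries limma voom with sample weights, which counts deviating libraries less, gave 0.46 for Tgfbr1 (adjusted p = 0.0833). Counting KO2 as wild type, as its tag has it, gave 0.51 for Bmpr2, 0.31 for Tgfbr1 and 0.16 for Acvr2a, while Bmpr1a was at 0.35 (edgeR adjusted p = 0.792); 0 receptors and 0.0% of genes were called. Leaving KO2 out gave 0.85, 0.45, 0.31 and 0.39 for Bmpr2, Tgfbr1, Acvr2a and Bmpr1a.

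The 4 receptors with an unadjusted p under 0.05 were 4 of the 5 with low-GC transcripts, and the difference between the groups ran with GC content across all genes. Of the 2407 tested genes under 43% GC, 33.8% were higher in knockout at an unadjusted p under 0.05 and 1.08% lower, with a median log2 fold change of 0.26. Of the 7617 genes from 48% GC, 3.43% were higher and 15.2% lower, with a median of -0.12. Among the receptors 4 of 5 under 43% and 0 of 5 from 48% were higher at that level. Against the median of their class, Bmpr2 at 0.97 and Tgfbr1 at 0.51 lay well above, Acvr2a at 0.40 and Bmpr1a at 0.36 nearer to it, and Bmpr1b at 0.04 below it.

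**Figure D3:**
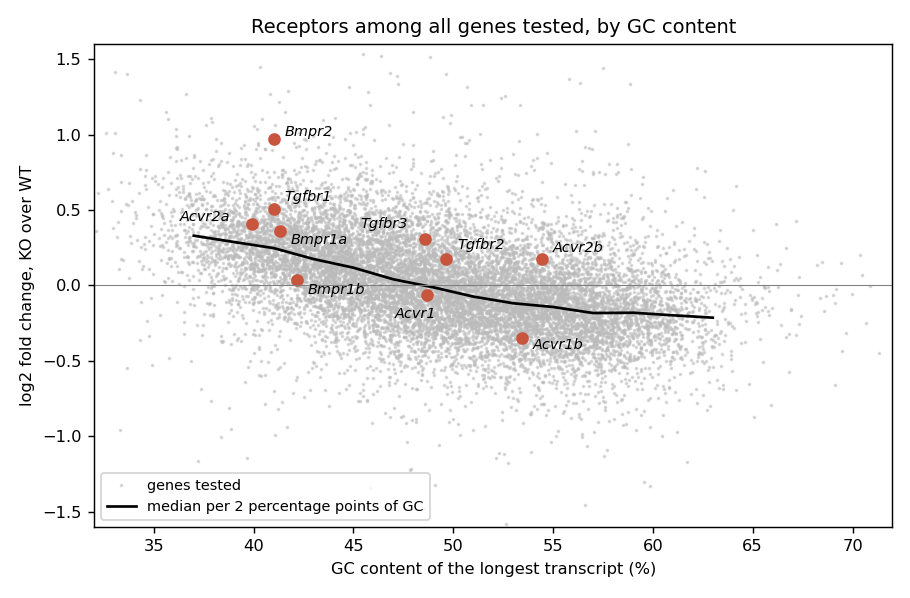
Log2 fold change of knockout over wild type (5 against 5) against the GC content of the longest transcript for the genes tested (grey, those beyond the axis limits not drawn), with the median per 2 percentage points as a black line and the 10 receptors in red. The line falls from low to high GC, and Bmpr2 and Tgfbr1 lie above it while Acvr1b and Bmpr1b lie below.

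With each library's GC trend removed, the log2 fold changes of these 4 receptors were smaller. The log2 fold change of Tgfbr1 was then 0.27 (SE 0.09; edgeR adjusted p = 0.204). It was the 1 receptor left at an unadjusted level of 0.05, where 7.47% of all genes were higher and 8.12% lower, and after adjustment 0 receptors and 0.0372% of genes were called. Bmpr2 had 0.70 (SE 0.34, edgeR adjusted p = 0.357), Bmpr1a 0.14 (SE 0.09, adjusted p = 0.459) and Acvr2a 0.13 (SE 0.11, adjusted p = 0.614). Among the receptors of higher GC content Acvr2b moved from 0.17 to 0.31 (SE 0.17, edgeR adjusted p = 0.391) and Acvr1b from -0.35 to -0.24 (SE 0.17, adjusted p = 0.505). Bmpr1b turned to -0.16 (SE 0.18, edgeR adjusted p = 0.714). The other 3, Acvr1, Tgfbr2 and Tgfbr3, had -0.06, 0.20 and 0.31, beside -0.06, 0.17 and 0.31 before the trend was removed.

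**Figure D4:**
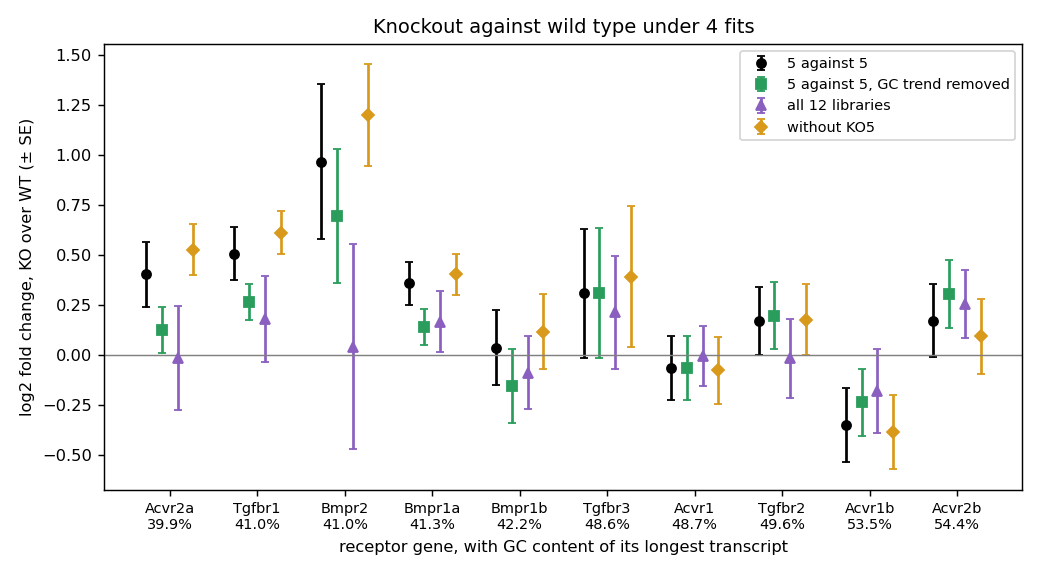
Log2 fold change of each receptor with its standard error under 4 fits, receptors ordered by transcript GC content from low to high. Removing the GC trend or adding WT2 and KO4 lowers Acvr2a, Tgfbr1, Bmpr2 and Bmpr1a, and leaving out KO5 raises them.

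The order of the libraries for Bmpr2 was nearly that of their general level of low-GC transcripts. This was measured in each library as the mean log2(CPM + 1) of genes in the lowest quartile of GC content (up to 44.5%) minus that of the highest quartile (from 54.3%). It was 1.47 in WT2, 1.09 in KO3, 1.07 in KO2, 1.04 in KO8 and 0.75 in KO6, and Bmpr2 placed the same 5 libraries highest in the same order. The lowest 3 of both were WT6 at 0.32, KO5 at 0.45 and KO4 at 0.45. The measure was 0.53 ± 0.13 in the 5 wild-type and 0.88 ± 0.28 in the 5 knockout libraries (SD; two-sided exact permutation p = 0.0635). WT1, WT3, WT5 and WT7 lay between, at 0.54, 0.69, 0.57 and 0.54. For Acvr1b the order was turned at its low end only, where WT2, KO3 and KO2 were its lowest 3 libraries. WT1 and KO6 were its highest. The summed Purkinje cell markers moved in the same direction, from 294 CPM on average in wild type to 406 CPM in knockout (two-sided exact permutation p = 0.0397), with WT2 at 655 CPM and KO4 at 287. Bergmann glia and astrocyte markers averaged 1138 CPM in wild type against 1364 in knockout (two-sided exact permutation p = 0.0556), with WT2 highest at 2252 CPM and KO4 at 1172. Of these, Fabp7 averaged 513 against 688 CPM, with WT2 at 1519, and Apoe 215 against 187 CPM, with WT2 at 114. Gfap, Aldh1l1 and Hopx also had lower means in knockout, Gdf10 was level at 13.7 CPM, and the rest of that list had higher means. Granule precursor markers averaged 5334 against 6742 CPM (two-sided exact permutation p = 0.0952), with WT2 at 7771 CPM and KO4 at 5763. Neurod1, the most abundant of them, averaged 2582 against 3628 CPM, and Atoh1 92.2 against 95.8 CPM. Barhl1, Zic2 and Gli1 had lower means in knockout, and the rest of that list had higher ones. The part of these cells' RNA in the receptor values was not tested. Libraries differed by transcript length too, taken as the mean log2(CPM + 1) of the longest quartile of genes minus that of the shortest. This was 0.46 in KO2, 0.40 in WT2, 0.33 in KO3 and 0.29 in KO8 and WT3. It was 0.20 in KO6, 0.15 in WT5 and KO4, 0.13 in WT7, 0.12 in WT1, 0.11 in WT6 and 0.08 in KO5. The longest Bmpr2 transcript has 12899 bases, beside a median of 3412 over tested genes. The part of length in the receptor values was not tested.

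**Figure D5:**
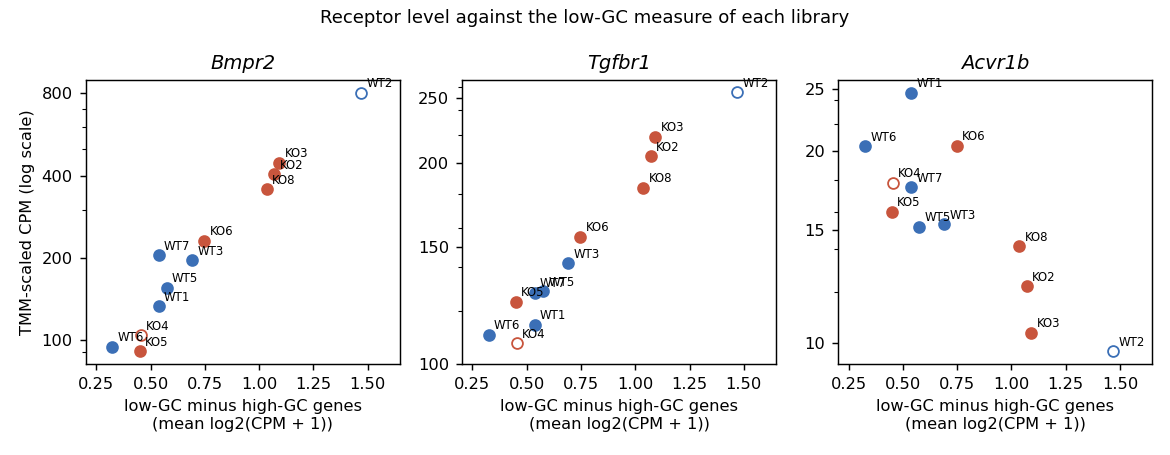
CPM (log axis) of Bmpr2, Tgfbr1 and Acvr1b in the 12 libraries against the mean log2(CPM + 1) of low-GC minus high-GC genes in the same library, wild type in blue, knockout in red, open circles for WT2 and KO4. Bmpr2 is lowest in the 3 libraries with the lowest measure and highest in WT2, as is Tgfbr1 in WT2, while Acvr1b is lowest in WT2.

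The genes whose pattern over the 10 libraries was most like Tgfbr1 and Bmpr1a, the 2 receptors with the smallest p, also had transcripts below the median GC content. For Tgfbr1 they were Fsd1l (Pearson's r of log2(CPM + 1) 0.990), C1galt1c1 (0.987) and Phip (0.985), out of 8674 genes compared, with GC contents of 36.8%, 39.1% and 38.7%. For Bmpr1a they were Wdr43 (0.972), Ogt (0.968) and Commd1 (0.961), at 44.3%, 42.9% and 45.3%. These were picked as the highest of many values, in libraries that share the difference in GC content, and describe likeness only.

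No gene that acts before the receptors passed the adjusted test in edgeR. The counts of pathway genes at an unadjusted 0.05 level, here and in the next lists, stand beside 11.8% of all genes higher and 9.97% lower, and with so few genes in a list they are not set apart from those shares. Of 28 ligand genes 13 were tested, 0 passed, 0 were higher and 1 was lower at the unadjusted 0.05 level; their median log2 fold change was 0.04. The lower one was Bmp1, a procollagen proteinase despite its name, at 32.4 ± 2.72 CPM in wild type against 26.4 ± 2.86 in knockout (SD, n = 5 each; edgeR adjusted p = 0.176, and 0.711 with the GC trend removed). The ligands Inhbb, an activin subunit, and Gdf11 had 1.59 against 1.12 CPM and 22.1 against 25.7 CPM, neither passing. Of the TGF-betas themselves, Tgfb2 had 27.8 CPM in wild type and Tgfb1 3.29 CPM. Of 9 tested extracellular antagonists 0 passed and 0 had an unadjusted p under 0.05; the BMP-binding Twsg1 had 109.9 against 125 CPM, Chrdl1 8.21 against 10.7 CPM and Crim1 10.9 against 12.9 CPM. The median over these antagonists was 0.18.

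Of 12 tested further receptors, co-receptors and latent TGF-beta binding proteins 0 passed, 0 were higher and 1 was lower at an unadjusted p under 0.05. That gene was Ltbp3, which holds TGF-beta in its latent form, at 66.6 ± 9.14 CPM in wild type against 53.0 ± 5.03 in knockout (SD, n = 5 each; edgeR adjusted p = 0.146, and 0.481 with the GC trend removed). Ltbp4 had 7.70 against 6.08 CPM and Nrros, which anchors latent TGF-beta on myeloid cells, 4.58 against 3.41 CPM. The endothelial type I receptor Acvrl1 (ALK1) had 5.05 against 4.63 CPM and the endothelial co-receptor Eng 12.9 against 12.05 CPM.

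Regulators that act on the receptors had 24 tested genes, of which 0 passed; without adjustment 4 were higher and 3 lower at the 0.05 level. Those with the smallest p were the ubiquitin ligases Wwp1 (32.3 ± 5.40 against 48.6 ± 11.5 CPM) and Smurf2 (89.0 ± 12.9 against 117 ± 19.1 CPM), which with SMAD7 mark type I receptors for breakdown, and Magi2 (19.9 ± 2.20 against 27.7 ± 5.96 CPM), a scaffold that binds activin type II receptors (SD, n = 5 each). Their log2 fold changes were 0.59, 0.40 and 0.47, with adjusted p in edgeR of 0.131, 0.139 and 0.137. With the GC trend removed the log2 fold change was 0.31 for Wwp1, 0.34 for Smurf2 and 0.54 for Magi2, with adjusted p in edgeR of 0.234, 0.205 and 0.172. Their unadjusted p were then 0.0169, 0.00891 and 0.00259; in edgeR's fit to all 12 libraries they had 0.453, 0.214 and 0.230. The receptor inhibitor Fkbp1a (FKBP12), which binds type I receptors, had 316 against 276 CPM (edgeR adjusted p = 0.279). DESeq2 called Wwp1 of these regulators, Id4 and Skil of the readouts, and no gene of the other pathway lists. Skil is in the readout list but is the targeted gene, so its fall is not read as a readout. Without KO5 edgeR called 6 regulators as higher and 3 as lower, Ltbp3 and Nrros as lower among co-receptors, and Id4 and Skil among readouts, in the fit that called 22.9% of genes.

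Among genes that act after the receptors the targeted gene, Skil, had the smallest p. Of 7 tested SMADs 0 passed and 1 was higher at an unadjusted p under 0.05. Smad1, a substrate of Bmpr1a, Bmpr1b and Acvr1, stood at 54.7 ± 7.66 CPM in wild type against 66.9 ± 5.26 in knockout (SD, n = 5 each; log2 fold change 0.29, edgeR adjusted p = 0.161). The log2 fold change was 0.37 with the GC trend removed (adjusted p in edgeR 0.177) and 0.36 in all 12 libraries, with WT2 at 62.6 CPM and KO4 at 97.5. Smad2, a substrate of Tgfbr1 and Acvr1b, had 60.4 against 55.7 CPM and Smad9 0.663 against 1.13 CPM. Of 17 tested transcriptional readouts, the targeted Skil among them, 0 passed, with Id4 higher and Skil lower at an unadjusted p under 0.05. Id4, an inhibitor of basic helix-loop-helix factors and a BMP target, had 5.44 ± 1.24 against 9.43 ± 2.80 CPM (SD, n = 5 each; log2 fold change 0.79, edgeR adjusted p = 0.131). Its log2 fold change was 0.61 with the GC trend removed (edgeR adjusted p = 0.205) and 0.49 in all 12 libraries. WT2 had 11.6 CPM of Id4 and KO4 6.81. Id2 had 296 against 333 CPM. Other readouts differed less and not in 1 direction. Id1 had 50.2 against 53.7 CPM, Id3 21.8 against 19.4 CPM, Smad7 14.5 against 14.6 CPM and Bambi 11.8 against 12.5 CPM.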

How the data were processed

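Per the labels' protocols, RNA of the laser-captured layer was extracted with a micro column kit and made into libraries with a NEBNext Ultra kit, a kit without strand marking. Each library has a deposited table of raw read counts per gene. HTSeq 0.6.1, STAR 2.5.3a, cutadapt 1.16, DESeq2 and the build mm10 are named, per the submitters' processing notes; not given in the sources used here: their settings and annotation release. The 5 summary rows of each table were left out. Gene identifiers were matched, without their version, to GENCODE M21 (GRCm38): 53274 of 53379.

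Genes were filtered with filterByExpr (minimum count 10), scaled by TMM and compared, 5 against 5 libraries, with edgeR's quasi-likelihood test (edgeR 4.0.16, limma 3.58.1, R 4.3.3), Benjamini-Hochberg adjusted over all 13442 genes at 0.05. The standard error is the log2 fold change over the square root of F. CPM use filter and factors from all 12 libraries. Exact permutation tests ran on log2(CPM + 1) over 252 arrangements, unadjusted: 131 tests, for 10 receptors, 110 pathway genes, 10 marker sums and the GC measure. Exon length is the union of annotated exons. The GC trend is a spline (5 degrees of freedom) of log2 CPM on transcript GC content per library, entered as an offset. The limits of 43% and 48% GC were set after seeing the receptors' values. The procedure was tested on simulated counts.

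The receptors and gene lists were chosen with earlier results of these data known. Named by rule are the 10 receptors, Skil, up to 3 genes of each pathway list with the smallest p, and the 3 genes most like each of 2 receptors. Tgfb1, Tgfb2, Acvrl1, Eng, Fkbp1a, Id1, Id3, Smad7 and Bambi were added after their values were seen. Alternatives were DESeq2 1.42.0, RLE factors, library size alone, other filters, all 12 libraries (also by limma voom with sample weights), KO2 as wild type, the GC trend, a block on replicate number, and leaving out libraries 1 at a time. Of 197 list genes 195 were matched. The sums of counts per library limit the precision of low genes such as Tgfbr3. Within groups all pairs of libraries differed beyond sampling error (chi-square over its degrees of freedom 6.15 to 85.3).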

Additional observations from a re-analysis of the deposited data

Results flagged for a closer look

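Each receptor's 6 values per group, with the marked libraries, were searched for a library that stands far from the nearest other one. Chance marks about 1 in 20 independent groups, and 5 of 20 were marked here. The 20 groups share the same 12 libraries, and WT2 was known as an outlier beforehand, so this count cannot be set against that share. WT2 stood apart among the wild-type libraries for the 4 receptors discussed most: Bmpr2 at 805 CPM (next highest 204), Tgfbr1 at 255 CPM (next 142), Bmpr1a at 246 CPM (next 162) and Acvr2a at 93.0 CPM (next 43.5). WT2 is one of the 2 libraries the submitters marked as outliers and had the highest level of low-GC transcripts of all 12. WT3 stood apart for Acvr1 at 18.9 CPM (next 14.7).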

How the results depend on the processing

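The direction of Tgfbr1, Bmpr1a, Bmpr2, Acvr2b, Tgfbr3 and Acvr1b was the same in all 24 alternatives, with log2 fold changes of 0.12 to 0.61, 0.12 to 0.41, 0.04 to 1.201, 0.09 to 0.31, 0.16 to 0.64 and -0.49 to -0.09 in that order. Over these alternatives the adjusted p of edgeR, DESeq2 or limma ran up to 0.9999 for each of the 10 receptors, from 9.12e-04 for Tgfbr1, 0.00545 for Acvr2a, 0.00682 for Bmpr1a and 0.0103 for Bmpr2. The count of receptors called, 0 in the comparison as reported, was 2 with DESeq2, 1 without a filter beyond a count of 1, and 0 to 4 with each library left out, the 4 arising without KO5. The count of all genes called, 3 as reported, was 449 with DESeq2, 965 without that filter, 1 with all 12 libraries, 0 with KO2 counted as wild type, 5 with the GC trend removed, 1 without WT2 only, and 0 to 3102 with each library left out; the cause was not tested.

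Signs turned for 4 receptors: Acvr1, Bmpr1b, Tgfbr2 and Acvr2a, the last from 0.40. Acvr1 had 0.0039 with voom on 12 libraries, and -0.17 to 0.044 with 1 library left out, the highest without WT3. Bmpr1b had -0.048 with library size alone, -0.087 with all 12 libraries, -0.096 with KO2 as wild type, -0.16 with the GC trend removed, -0.15 with that in 12 libraries, -0.018 without WT2 only, -0.034 without KO4 only, -0.022 without WT5, -0.039 without KO2 and -0.077 without KO6. Tgfbr2 had -0.015 and Acvr2a -0.014 with all 12 libraries, and -0.00037 and -0.068 with the GC trend removed as well; the cause was not tested. Library size alone moved the median of all genes to -0.083. Fits without WT2 alone or KO4 alone, and those that joined the GC trend with 12 libraries or with the block, were chosen after seeing the data.

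With the replicate number as a block over the 3 numbers both groups share (3, 5 and 6) 0 receptors and 0 genes were called, and 0 of each with the GC trend removed in the same fit. The labels do not say what a number stands for; deviations of same-numbered libraries correlated at -0.047 to 0.111 and those of other pairs at -0.235 to 0.282, so the numbers were not taken as pairs. On the longest transcript the wild-type level was 21.7 CPM per kb for Tgfbr1 and 12.1 for Bmpr2. A pseudocount of 0.1 moved no permutation test of a receptor across 0.05.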
